A study of Homo sapiens with 6 samples.

Results

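The genes described here are 35 lysosomal genes chosen by name, comprising 18 enzymes that degrade glycans (13 glycosidases and 5 sulfatases), 6 cathepsins, 6 lipid hydrolases with their activators, the peptidase TPP1, and 4 genes of the lysosome membrane and its regulation. A probe set, a group of oligonucleotides on the array that reports a single transcript, was used only where the array's annotation named no more than 1 gene. Of the 35 genes, 34 had such probe sets, 94 in all, and GLB1 (β-galactosidase) was not analysed here. The log2 values of a gene's probe sets were averaged, and 31 of the 35 genes could be tested among 10115 genes of the array.

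The treated group was 3 Panc-1 cultures given 5 ng/mL porcine TGFβ for 48 h, and the untreated group was 3 cultures without it. Cells of both groups were first deprived of serum for 24 h. Panc-1 is a single established line from a human pancreatic adenocarcinoma, and TGFβ is a cytokine that drives epithelial-mesenchymal transition (EMT) in it. Messages were measured on 1 Affymetrix U133 Plus array per culture, and the study asked whether genes that act on glycans change in EMT. The labels give the dose as 5 ng/mL whereas the study's methods give 5 nM, and which is right is not settled here.

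The lysosome is the acidic compartment in which cells take apart glycans, proteins and lipids that arrive by endocytosis and autophagy. Its enzymes are made in the secretory pathway and most are carried there by mannose 6-phosphate receptors, while a proton pump, the vacuolar ATPase, keeps the interior acidic. Many lysosomal genes are known targets of the transcription factor TFEB and its relatives TFE3 and MITF, which bind an E-box in a palindrome called the CLEAR element.

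The start regions of the genes were searched for that element, since TFEB is itself in the list. RefSeq windows on GRCh38.p14, running from 250 bases before to 50 bases after a start site, were at hand for 26 of the 35 genes. The E-box CACGTG, a palindrome and so the same on both strands, was present in windows of 9 of these 26 genes (34.6%), and in 8.77% of the 27305 genes with a window. The longer core TCACGTGA, which contains the E-box, was present in 5 of the 26 (19.2%), and in 1.18% of all genes with a window. Higher shares than among all genes were foreseeable, since the genes were chosen as lysosomal and many lysosomal genes are known TFEB targets. They hold no information on the effect of TGFβ. The 9 genes were ARSB, CTSA, CTSD, GAA, GALNS, HPSE, LAMP1, MCOLN1 and NEU1, and the 5 were CTSA, GAA, GALNS, LAMP1 and MCOLN1. The windows below are printed because they belong to genes whose messages went different ways with TGFβ: GAA and CTSA fell, ARSB rose, and GALNS and MCOLN1 did not pass the test. Capitals mark the longer core, or the E-box alone in ARSB, and each sequence runs 5′ to 3′ on the strand of its gene and ends before the start site.
GAA, farther site, plus strand, chr17:80101484-80101531: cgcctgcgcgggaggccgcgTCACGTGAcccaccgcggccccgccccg
GAA, nearer site, plus strand, chr17:80101529-80101576: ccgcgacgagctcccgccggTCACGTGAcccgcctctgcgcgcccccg
CTSA, plus strand, chr20:45891289-45891334: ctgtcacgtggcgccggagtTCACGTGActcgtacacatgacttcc
ARSB, minus strand, chr5:78986093-78986138: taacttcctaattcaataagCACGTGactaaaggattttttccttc
GALNS, minus strand, chr16:88857095-88857142: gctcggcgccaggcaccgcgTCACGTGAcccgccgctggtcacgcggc
MCOLN1, plus strand, chr19:7522562-7522609: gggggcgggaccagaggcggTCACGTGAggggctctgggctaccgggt
The first base of the core lay 77 and 32 bases before the start site of GAA, 26 bases before that of CTSA, 175 before that of GALNS and 42 before that of MCOLN1, which holds another core 15 bases before its start site. These matches describe letters only, and binding was not measured.

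The 6 arrays were alike in overall signal, with medians of 5.15 to 5.21 on the log2 scale and 33.4% to 33.8% of probe sets at a signal of 100 or more. Of the 5 ductal epithelial markers, KRT7, KRT8, KRT18 and EPCAM were above that limit and KRT19 was not. Their mean level was 7.69 to 7.75 on the TGFβ arrays against 8.68 to 8.71 on the untreated arrays. They did not move together: the log2 fold changes of KRT8 (-2.18), KRT18 (-1.25) and EPCAM (-0.80) were called lower, whereas KRT7 had 0.24 and was not called. KRT19 had -0.66 without the limit. None of the markers of acinar, islet, fibroblast, leukocyte or endothelial cells (2, 3, 4, 5 and 3 genes with probe sets) had a probe set above the limit. The 3′ minus 5′ signal of the ACTB control probes, a measure of RNA quality, was 0.34 ± 0.060 on the TGFβ arrays and 0.55 ± 0.031 on the untreated arrays (log2, SD, n = 3 each) without overlap, while that of GAPDH overlapped. Its part in the results was not tested. In such bulk samples, fewer cells that express a gene and less message per cell cannot be told apart.

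Lysosomal genes were called in both directions with TGFβ, with more falls than rises, as was also so among all genes. By limma with Benjamini-Hochberg adjustment over all genes, 13 of the 31 tested genes were lower with TGFβ (41.9%), 7 were higher (22.6%) and 11 were not called. Among all 10115 genes, 31.0% were lower and 27.7% higher. In either direction 20 of the 31 genes were called (64.5%), against 58.7% of all genes. The sizes were mostly small. Of the 20 called genes 8 were under 1.2-fold, and the median size of change was 0.19 on the log2 scale for the 31 genes and 0.21 for all genes. The median log2 fold change itself was -0.06 for the 31 genes and -0.01 for all genes.

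Changes of 1.5-fold or more were seen in 5 of the 31 genes (16.1%), against 13.4% of all genes. ARSB, CTSC and TFEB were the ones that rose by that much, and SMPD1 and GAA were the ones that fell. In 21 of the 31 genes the 3 TGFβ arrays and the 3 untreated arrays did not overlap (67.7%), a share close to the 68.2% of all genes. These 21 were the 20 called genes and LAMP2. Groups that do not overlap move the same way in 3 of 3 same-numbered pairs by construction, so the pairs add no support. The lower count was 7 without replicate 2 and 7 without replicate 3, and in both cases HEXA, NAGLU, CTSA, CTSB, CTSD and ASAH1 were the genes no longer called lower. The share of all genes called with a replicate left out is not given here. Without the signal limit 7 of 34 genes were lower and 5 higher, and the genes no longer called lower were HEXA, FUCA1, NAGLU, CTSB, CTSD and ASAH1. In that fit 26.8% of all genes were called (2786 lower and 2517 higher), against 58.7% with the limit. ARSB passed the limit only through the TGFβ arrays and SMPD1 only through the untreated arrays. Both stayed called without it, SMPD1 narrowly (limma adjusted p = 0.045).

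**Figure D1:**
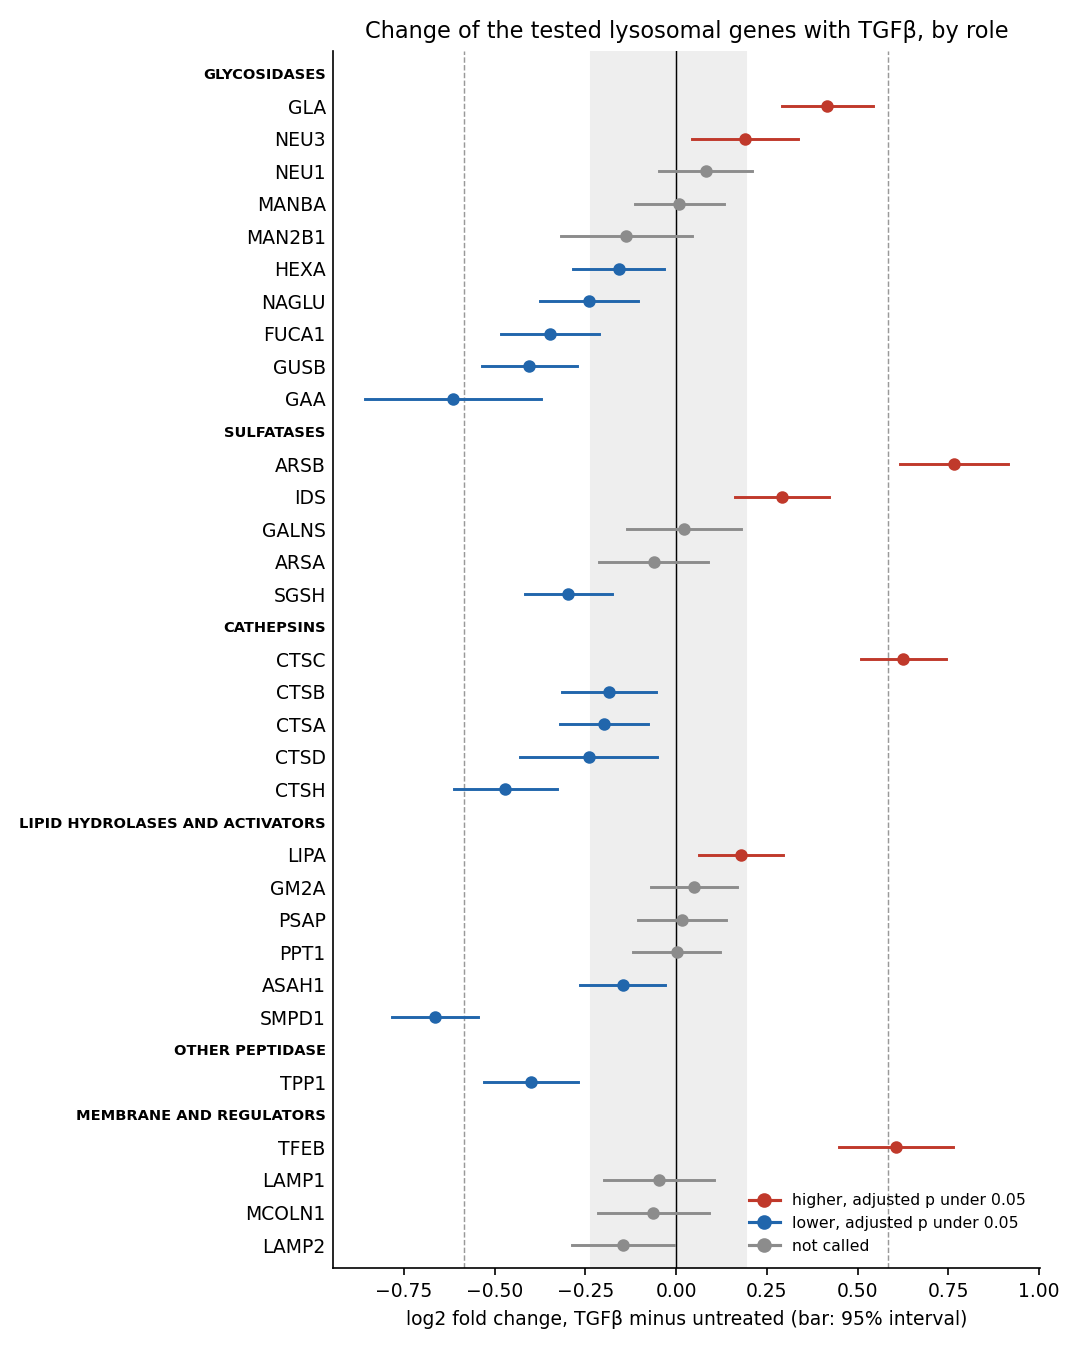
Log2 fold change, TGFβ minus untreated, of the 31 tested lysosomal genes in order of role, with 95% intervals; red genes were called higher, blue genes lower and grey genes were not called. The grey band spans the middle of all genes (quartiles at -0.23 and 0.19), the dashed lines stand at 1.5-fold, and only ARSB, CTSC, TFEB, SMPD1 and GAA have points beyond them.

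The glycosidases, most of which cut single sugars from the ends of glycans, were split, with 5 of the 10 tested lower, 2 higher and 3 not called. Their share called was 70%, against 58.7% of all genes. GAA (Entrez 2548), the acid α-glucosidase that breaks down glycogen, changed most. Its log2 values were 7.64, 7.37 and 7.44 on the TGFβ arrays and 7.99, 7.98 and 8.33 on the untreated arrays. All 3 TGFβ arrays lay below the lowest untreated array, and untreated replicate 3 stood above the rest of its group. GAA was 1.53-fold lower with TGFβ (log2 fold change -0.61, SE 0.10, limma adjusted p = 0.0028).

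The other glycosidases that fell act on glycosaminoglycans and on glycoproteins. GUSB (Entrez 2990), which removes terminal glucuronic acid, averaged 9.20 ± 0.066 with TGFβ and 9.61 ± 0.028 untreated (log2, SD, n = 3 each), a log2 fold change of -0.40. FUCA1 (Entrez 2517), the α-L-fucosidase of glycoprotein breakdown, averaged 9.26 ± 0.10 with TGFβ and 9.61 ± 0.014 untreated, a log2 fold change of -0.35. NAGLU, which takes N-acetylglucosamine off heparan sulfate, had a log2 fold change of -0.24, and HEXA, the α subunit of β-hexosaminidase, one of -0.16. HEXA was close to the threshold, with a limma adjusted p of 0.038 as a gene and of 0.056 in the fit of single probe sets, although it rests on the same probe set in both. When dimmer probe sets were averaged in without the signal limit, FUCA1 (-0.14), NAGLU (-0.05) and HEXA (-0.07) were not called, while GUSB was (-0.28).

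Among glycosidases that did not fall, GLA (Entrez 2717), the α-galactosidase A that acts on globosides, showed the clearest rise. It averaged 9.70 ± 0.012 with TGFβ and 9.28 ± 0.073 untreated (log2, SD, n = 3 each), 1.34-fold higher (log2 fold change 0.42, SE 0.051, limma adjusted p = 9.3e-04). NEU3, the sialidase of the plasma membrane that acts on gangliosides, rose by a log2 fold change of 0.19 (0.10 and not called without the signal limit, and not called without replicate 2 or with median centring), while the lysosomal sialidase NEU1 had 0.08 and was not called. The mannosidases MANBA and MAN2B1 were not called, with 0.01 and -0.14. Their 95% intervals ran from -0.11 to 0.13 and from -0.32 to 0.04.

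The sulfatases remove sulfate from glycosaminoglycans and from sulfatide, and 2 of the 5 were higher, 1 was lower and 2 were not called. At 60% called, they were close to the 58.7% of all genes. ARSB (Entrez 411), which removes the 4-sulfate of N-acetylgalactosamine in chondroitin and dermatan sulfate, had the largest change of the 31 genes with the signal limit applied, but not without it. Its log2 values were 6.74, 6.82 and 6.74 on the TGFβ arrays against 5.87, 6.02 and 6.09 on the untreated arrays. The untreated values lay below the limit of 6.64, and ARSB passed it only through the TGFβ arrays. The separation of the groups is therefore not independent support. ARSB was 1.70-fold higher with TGFβ (log2 fold change 0.77, SE 0.061, limma adjusted p = 1.8e-04), and 0.43 on the log2 scale when its 3 dimmer probe sets were averaged in. One of these, 1554030_at, was also higher (0.74), 232197_x_at had 0.22 and 1554032_at had 0.01.

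IDS (Entrez 3423), which removes the 2-sulfate of iduronic acid, was called higher as a gene but its probe sets did not move together. Its gene values were 9.15, 9.03 and 9.12 on the TGFβ arrays and 8.77, 8.76 and 8.88 on the untreated arrays, so that the groups did not overlap (log2 fold change 0.29, SE 0.053, limma adjusted p = 0.0043). Of its 6 probe sets above the limit, 4 were higher with log2 fold changes of 0.32 to 0.65, and 212223_at was not called (0.08). The brightest, 212221_x_at, was lower (-0.19), with 10.30, 10.20 and 10.32 on the TGFβ arrays and 10.40, 10.43 and 10.56 on the untreated arrays. IDS has a homologous pseudogene nearby, and probe sets ending in _x_at may bind related transcripts, so the direction of IDS is uncertain. Without the signal limit IDS was no longer called (0.17, limma adjusted p = 0.057).

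SGSH (Entrez 6448), the sulfamidase that removes the N-linked sulfate of heparan sulfate, fell in both of its probe sets (-0.38 and -0.21) and as a gene (log2 fold change -0.30, SE 0.049, limma adjusted p = 0.0031). ARSA, which acts on sulfatide, and GALNS, which removes 6-sulfate from chondroitin and keratan sulfate, were not called, with log2 fold changes of -0.06 (95% interval -0.21 to 0.09) and 0.02 (-0.14 to 0.18). Across all 15 tested glycan-degrading enzymes, 6 were lower, 4 were higher and 5 were not called, and the median log2 fold change was -0.06. In either direction 66.7% of them were called, against 58.7% of all genes (31.0% lower and 27.7% higher).

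**Figure D2:**
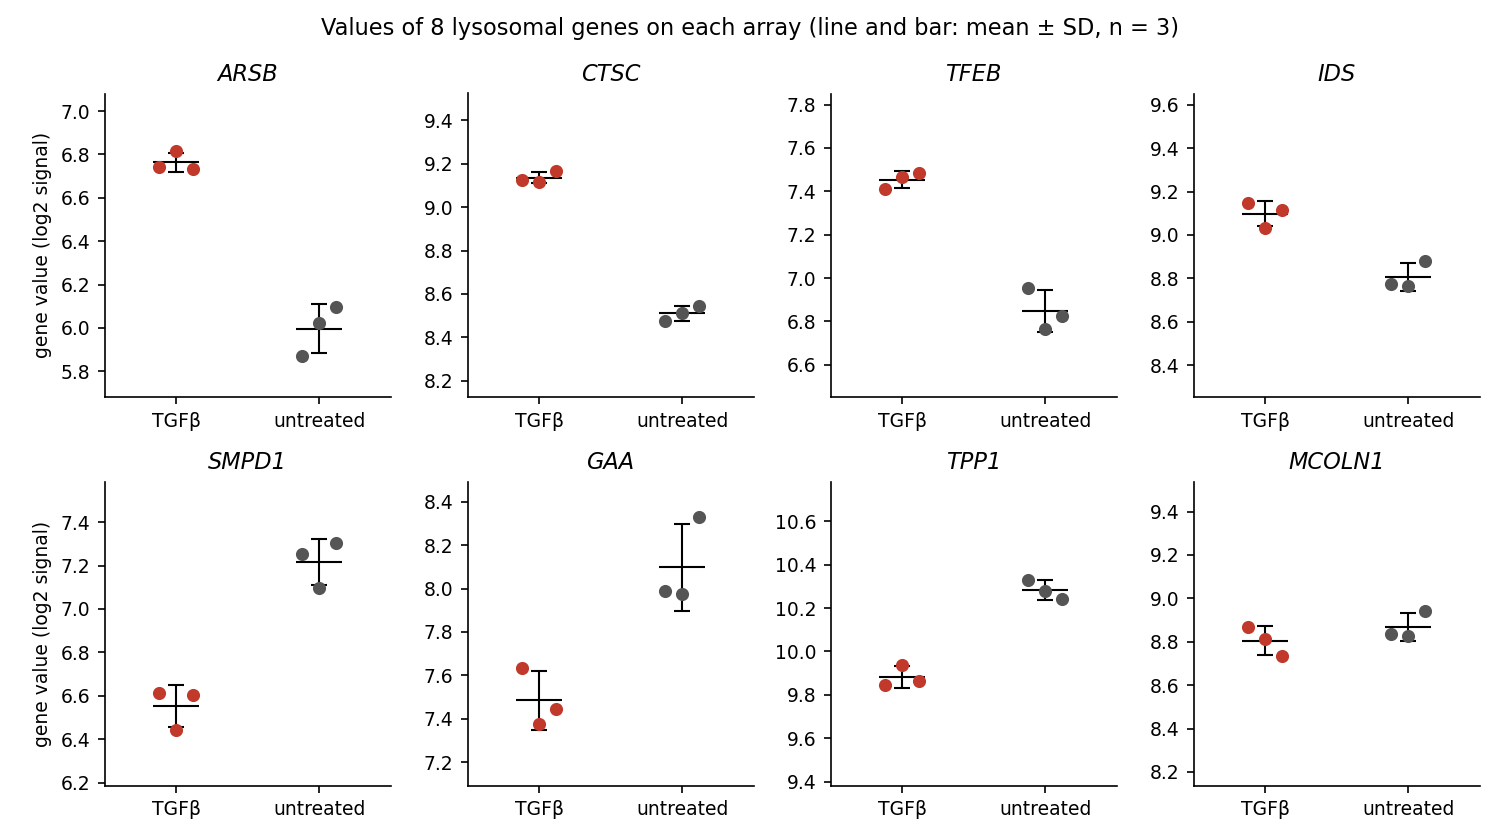
Gene values (log2 signal) of 8 lysosomal genes on each of the 3 TGFβ arrays (red) and 3 untreated arrays (grey), with the mean and SD of each group; all panels span the same range of 1.4 log2 units. The groups are apart in every panel except MCOLN1, where they overlap.

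The cathepsins, the main proteases of the lysosome, were called in 5 of 5 tested cases, 4 lower and 1 higher, against 31.0% lower and 27.7% higher among all genes. CTSH was the only fall still called without replicate 2 or without replicate 3. The exception in direction was CTSC (Entrez 1075), a dipeptidyl peptidase known for activating serine proteases of immune cells. CTSC had log2 values of 9.13, 9.12 and 9.17 on the TGFβ arrays and 8.47, 8.51 and 8.55 on the untreated arrays. The spread within a group was small beside the gap between groups, and CTSC was 1.54-fold higher with TGFβ (log2 fold change 0.63, SE 0.048, limma adjusted p = 1.5e-04). The rise was carried by 225646_at (1.03) and 225647_s_at (0.78), whereas 201487_at was not called (0.07).

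The cathepsin with the largest fall was CTSH (Entrez 1512), a cysteine protease with aminopeptidase activity. It averaged 7.82 ± 0.096 with TGFβ and 8.29 ± 0.042 untreated (log2, SD, n = 3 each), 1.39-fold lower (log2 fold change -0.47, SE 0.058, limma adjusted p = 9.5e-04). The falls of CTSD, the aspartic protease (-0.24), CTSA, the carboxypeptidase that protects GLB1 and NEU1 (-0.20), and CTSB, a cysteine protease (-0.18), were all under 1.2-fold. CTSD averaged 9.73 ± 0.096 with TGFβ and 9.97 ± 0.18 untreated, and untreated replicate 3, at 10.19, stood above the rest of its group. Without replicate 3 the log2 fold change of CTSD was -0.15 and it was not called. Of the 5 probe sets of CTSB, 2 were lower (-0.37 and -0.31), and the other 3 were not called (-0.14 to -0.05). The brightest, 200839_s_at and 200838_at, both had -0.05. CTSB was not called when its brightest probe set stood for the gene, or without _x_at probe sets.

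The lipid hydrolases and their activators had 2 of 6 genes lower, 1 higher and 3 not called (50% called, against 58.7% of all genes). SMPD1 (Entrez 6609), the acid sphingomyelinase that makes ceramide, had the largest fall of the 31 genes with the signal limit applied, but not without it. Its log2 values were 6.62, 6.44 and 6.60 on the TGFβ arrays and 7.25, 7.10 and 7.30 on the untreated arrays. The TGFβ values lay below the limit of 6.64, and SMPD1 passed it only through the untreated arrays, so the separation of the groups is not independent support. By that value SMPD1 was 1.58-fold lower with TGFβ (log2 fold change -0.66, SE 0.048, limma adjusted p = 1.3e-04). The value rests on a single probe set. With its 3 dimmer probe sets averaged in, the log2 fold change was -0.18, just within the threshold (limma adjusted p = 0.045). Of these, 216230_x_at was lower (-0.37) while 216571_at and 217171_at had 0.27 and 0.04.

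ASAH1, the acid ceramidase that acts on the product of SMPD1, had a log2 fold change of -0.15 and was called lower, as were 3 of its 4 probe sets (-0.23 to -0.19). It was the least stable of the lower calls when replicates were left out, since it was not called without replicate 1, 2 or 3. LIPA, the acid lipase that frees cholesterol from its esters, averaged 11.75 ± 0.011 with TGFβ and 11.57 ± 0.022 untreated (log2, SD, n = 3 each), a log2 fold change of 0.18, and was not called without replicate 2 or 3. PSAP, the precursor of the saposins, and PPT1, which takes palmitate off proteins, had log2 fold changes of 0.02 (95% interval -0.10 to 0.14) and 0.001 (-0.12 to 0.12). GM2A, the activator that presents GM2 ganglioside to hexosaminidase, was not called either (0.05, 95% interval -0.07 to 0.17), and 1 of its 5 probe sets, 33646_g_at, was higher (0.19).

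TPP1 (Entrez 1200), the tripeptidyl peptidase that is lost in a neuronal ceroid lipofuscinosis, fell. Its log2 values were 9.85, 9.94 and 9.86 on the TGFβ arrays and 10.33, 10.28 and 10.24 on the untreated arrays, without overlap. TPP1 was 1.32-fold lower with TGFβ (log2 fold change -0.40, SE 0.053, limma adjusted p = 0.0012). Of its 4 probe sets, 3 were lower (-0.55, -0.52 and -0.39) and 214195_at was not called (-0.14).

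Of the 4 genes of the membrane and its regulation, TFEB rose and the other 3 were not called. Their share called was 25%, against 58.7% of all genes. TFEB (Entrez 7942) had log2 values of 7.41, 7.47 and 7.48 on the TGFβ arrays and 6.96, 6.77 and 6.82 on the untreated arrays. Every TGFβ array was above every untreated array, and TFEB was 1.52-fold higher with TGFβ (log2 fold change 0.61, SE 0.064, limma adjusted p = 5.3e-04). The probe set 50221_at was higher (0.90), while 221866_at had 0.31, overlapped between the groups and missed the threshold (limma adjusted p = 0.050).

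MCOLN1 (Entrez 57192), the lysosomal cation channel known to act upstream of TFEB through calcineurin, had log2 values of 8.87, 8.81 and 8.74 on the TGFβ arrays and 8.84, 8.82 and 8.94 on the untreated arrays. The groups overlapped (log2 fold change -0.06, 95% interval -0.22 to 0.09). LAMP1, an abundant glycoprotein of the lysosome membrane, was not called (-0.05, 95% interval -0.20 to 0.11). LAMP2, its relative that also serves chaperone-mediated autophagy, had non-overlapping groups but missed the threshold (-0.15, limma adjusted p = 0.070), and of its 4 probe sets only 226671_at was lower (-0.50).

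Of the genes with the longer core in a start window, CTSA and GAA were lower, and GALNS, LAMP1 and MCOLN1 were not called. CTSA lost its call without replicate 2 or 3. Of those with the E-box alone, ARSB was higher, CTSD was lower, NEU1 was not called and HPSE was below the limit. The TFEB message was higher in the same arrays by 50221_at but was not called by 221866_at. TFEB protein and its activity were not measured, and a link between TFEB and these genes was not tested.

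**Figure D3:**
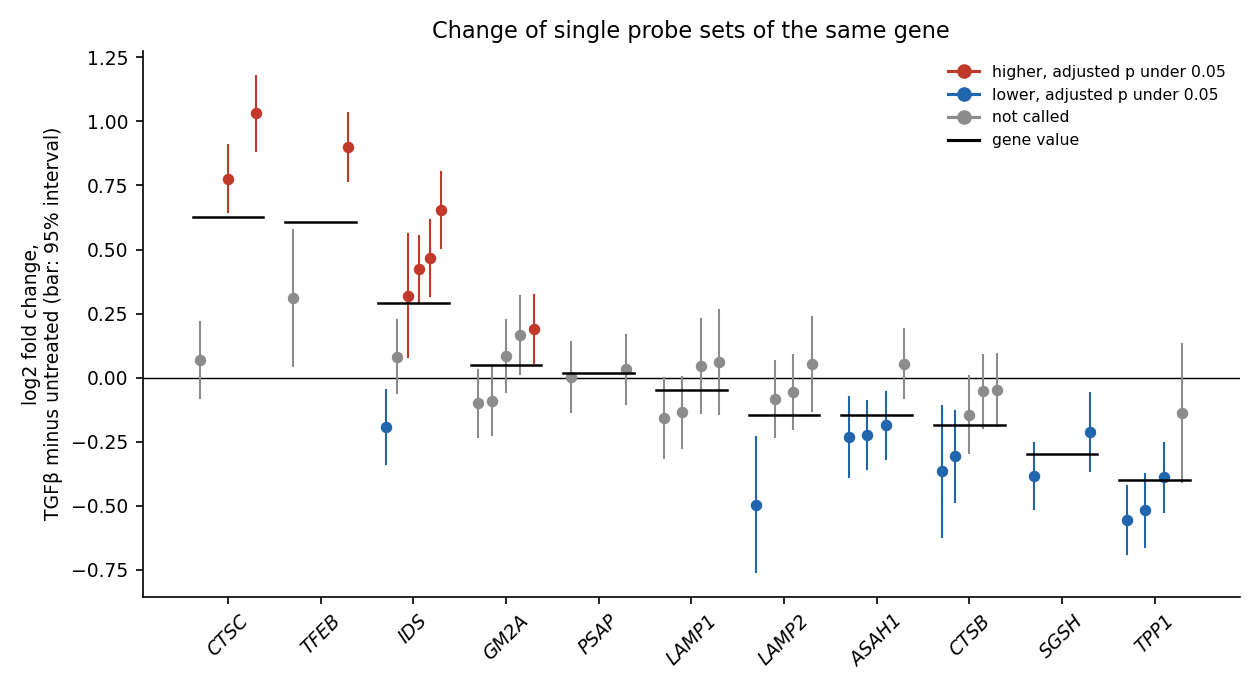
Log2 fold change, TGFβ minus untreated, with 95% intervals, of single probe sets for the 11 genes with more than 1 probe set above the limit; black lines give the gene value. IDS is the only gene with probe sets called in opposite directions, and IDS, CTSC, TFEB and LAMP2 have probe sets that differ by over 0.5 log2 units.

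Of the 61 probe sets of these genes above the limit, 12 were higher and 20 lower with TGFβ, so that 52.5% were called, against 55.1% of all probe sets above the limit. The remaining 3 genes with probe sets were below the limit in both groups. HPSE, the heparanase that cuts inside heparan sulfate chains, averaged 5.26 ± 0.097 with TGFβ and 4.94 ± 0.022 untreated (log2, SD, n = 3 each), and was called higher in the fit without the signal limit (0.32, limma adjusted p = 0.010), in which 26.8% of all genes were called. IDUA, the α-L-iduronidase, had -0.09 and CTSZ, a cysteine carboxypeptidase, had 0.04 in that fit, and neither was called.

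Sorted by substrate, the counts were as follows, beside 31.0% lower and 27.7% higher among all genes, and lists that share genes are not independent. Of the 5 tested genes of heparan sulfate breakdown, 3 were lower (GUSB, SGSH and NAGLU), 1 was higher (IDS) and the acetyltransferase HGSNAT was not called. The only rise in that list rests on IDS, whose direction is uncertain (-0.19 by its brightest probe set). Without the signal limit NAGLU (-0.05) and IDS (0.17) were not called, and NAGLU also lost the call without replicate 2 or 3. Of the 6 tested genes of chondroitin and dermatan sulfate breakdown, 3 were higher (ARSB, HYAL2, which lost the call without replicate 2 or 3, and, with the same doubt, IDS) and 2 were lower (GUSB and HEXA). Of the 2 tested genes of keratan sulfate breakdown, HEXA was lower and GALNS was not called. HEXA was not called without the signal limit (-0.07). Of 10 tested genes of sphingolipid breakdown, 4 were lower and 2 higher (2 lower and 1 higher without the signal limit). GALC, the galactosylceramidase, had the second largest change after SMPD1 (log2 fold change -0.54, SE 0.057). Without the limit GALC kept -0.54, whereas SMPD1 had -0.18. Of 7 tested genes of N-glycan breakdown, 4 were lower and 0 higher (2 lower without the signal limit, where FUCA1 and HEXA were not called), and after FUCA1 the largest falls were those of the mannosidase MAN2B2 (-0.34) and the chitobiase CTBS (-0.31), both of which were not called without replicate 2.

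Lysosomal hydrolases outside the 35 genes included larger changes. Of 20 tested, 9 were higher and 8 lower (85.0% called, against 58.7% of all genes), with a median log2 fold change of -0.04. The 3 largest changes were falls of RNASET2, the acid ribonuclease (-1.35, SE 0.050, and -0.44 without the signal limit), and of the cysteine cathepsins CTSO (-1.24, SE 0.055) and CTSF (-1.01, SE 0.052). On the log2 scale CTSO was 6.66, 6.42 and 6.34 on the TGFβ arrays and 7.81, 7.72 and 7.62 on the untreated arrays, without overlap. CTSO passed the signal limit only through the untreated arrays, so the lack of overlap is not independent support. CTSV, another cysteine cathepsin, named after its value was seen, rose by nearly as much as CTSF fell (1.00, SE 0.050), with 10.52, 10.58 and 10.47 on the TGFβ arrays and 9.48, 9.55 and 9.52 on the untreated arrays.

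Other genes of the lysosome membrane and of transport across it were called in 10 of 22 cases (45.5%, against 58.7% of all genes), 6 higher and 4 lower. LAPTM5, a lysosomal membrane protein best known from blood cells, had 6.91, 6.87 and 6.89 on the TGFβ arrays and 5.49, 5.62 and 5.41 on the untreated arrays (log2 fold change 1.38, SE 0.062). The untreated values of LAPTM5 lay below the limit, so the gap between its groups is not independent support. NPC1, the cholesterol exporter, rose (0.42, SE 0.086, and 0.15 and not called without the signal limit), and the transporter MFSD8 fell (-0.46, SE 0.051). The vacuolar ATPase had 5 of 17 subunits and accessory genes lower and 3 higher (47.1% called), the largest changes being ATP6V0E2 (-0.59), ATP6V1G1 (0.40) and ATP6V1A (-0.36).

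The genes that sort and activate lysosomal enzymes had 4 of 16 higher and 4 lower (50% called). SUMF1, which makes the catalytic formylglycine that every sulfatase needs, fell (log2 fold change -0.35, SE 0.052), and so did the adaptor GGA2 (-0.34, SE 0.047, and -0.16 and not called by its brightest probe set). IGF2R, the large mannose 6-phosphate receptor, was called higher (0.35, SE 0.11), but not without replicate 1 or 2. Among 19 genes of lysosomal signalling, 6 were lower and 3 higher (47.4% called), led by RRAGB, a Rag GTPase that recruits mTORC1 (-0.75, SE 0.064), MITF (-0.47, SE 0.056, and -0.28 without the signal limit) and PPP3CB, a catalytic subunit of calcineurin (-0.41, SE 0.048). TFE3, picked after its value was seen to complete the family, rose by 0.20 (0.07 and not called by its brightest probe set) and lost the call without replicate 2. TFEB and MITF, of the same family, moved in opposite directions.

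**Figure D4:**
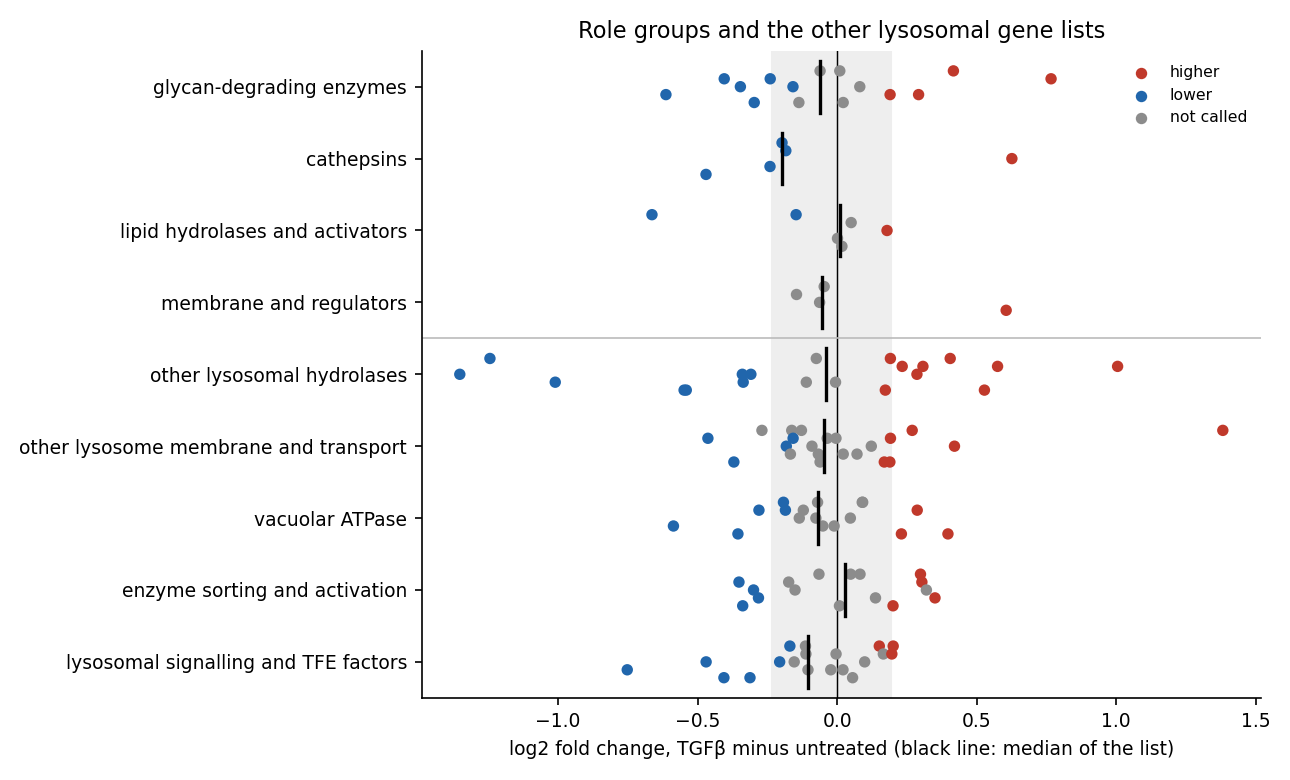
Log2 fold change, TGFβ minus untreated, of each tested gene in the 4 role groups (above the line; TPP1 is not drawn) and in 5 lists of other lysosomal genes (below it); colours give the call, black lines the median, and the grey band the quartiles of all genes. Medians run from -0.20 for the cathepsins to 0.03 for enzyme sorting. Called rises and called falls are found in every row except membrane and regulators, where no gene was called lower.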

How the data were processed

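Total RNA of 6 Panc-1 cultures (3 TGFβ, 3 untreated) was hybridised to Affymetrix U133 Plus arrays. The authors deposited log2 values for 54675 probe sets, read as log2 from their range. No source used here names the software for summarisation and normalisation, and the number of arrays limits the precision. Controls (62) were left out, and 41091 probe sets named exactly 1 gene (19777 genes). Following the study, probe sets averaging under a signal of 100 in both groups were dropped, leaving 19101, and 10115 genes as means of their probe sets. Genes and probe sets were tested in limma 3.58.1 (R 4.3.3; lmFit and eBayes, two-sided, 2 residual and 4.12 prior degrees of freedom for genes), with the replicate number as a block and Benjamini-Hochberg adjustment. A gene was called at an adjusted p under 0.05. The series' design text describes 3 repeats of the experiment. Probe sets below the limit take their values from a fit without it.

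The genes, role groups and lists were chosen with earlier results of these data known. All 35 genes were to be named; array values were given for called genes with a log2 change of at least 0.5, the largest change in each role group, TFEB, MCOLN1, and genes with probe sets called in opposite directions; each list named its 3 called genes with the largest change. TFE3, CTSV, HYAL2 and HGSNAT were added after their values were seen. The workflow was tested on simulated data. Alternatives covered the block, signal limit, normalisation, constant, variance trend, probe set choice, replicates, thresholds and the methods' t-test. Plots used matplotlib 3.10.9 and pandas 2.3.3 in Python 3.11.15.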

Additional observations from a re-analysis of the deposited data

How the results depend on the processing

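The lower count of 13 and the higher count of 7 among the lysosomal genes kept within 1.5 times under most alternatives. The lower count was 7 without the signal limit (34 genes, dim probe sets averaged in), 7 at an adjusted p under 0.01, 4 with the methods' t-test after Benjamini-Hochberg and 2 at 1.5-fold, and the higher count was 4 with that t-test and 3 at 1.5-fold. With a replicate left out the lower count ran from 7 to 14 and the higher count from 5 to 7. Glycan-degrading enzymes (6 lower, 4 higher) had 3 lower without the limit, 1 lower and 1 higher at 1.5-fold, and 1 lower and 2 higher with the t-test. Cathepsins (4 lower) had 2 lower without the limit, 1 at an adjusted p under 0.01, and 0 at 1.5-fold and with the t-test, and 1 to 4 with a replicate left out. Lipid hydrolases (2 lower, 1 higher) had 1 lower without the limit, with the limit in both groups, with median centring, without _x_at probe sets, at an adjusted p under 0.01 and at 1.5-fold, and 0 higher without the limit, with median centring and at both thresholds; with a replicate left out they had 1 lower and 0 to 1 higher. The cause was not tested, except that stricter thresholds call fewer genes by construction. Among all genes, too, fewer were called without the limit (26.8%) than with it (58.7%).

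GUSB, GAA, GLA, ARSB, SGSH, CTSC, CTSH, SMPD1, TPP1 and TFEB (10 genes) stayed called under every alternative run in which they were tested, other than the 1.5-fold threshold and the t-tests (ARSB and SMPD1 were not tested with the limit in both groups). At an unadjusted p under 0.05 the t-test did not call GAA, CTSD or NEU3. IDS turned to -0.19 when its brightest probe set stood for the gene. The other reversals were in genes that were not called, namely GM2A (-0.10, brightest probe set), PPT1 (-0.023 with quantile normalisation) and, with a replicate left out, PPT1 (-0.014 to 0.022), GALNS (-0.054 to 0.075), MANBA (-0.0072 to 0.042), HGSNAT (-0.089 to 0.022) and MCOLN1 (-0.11 to 0.0093). Same-numbered arrays did not deviate together (correlations -0.29, 0.24 and 0.06), and without the replicate block the counts were again 13 and 7, with LAMP2 in place of CTSD, and IGF2R was not called. With 3 arrays per group, log2 changes of about 0.15 lay near the threshold, ASAH1 (-0.147) being called and LAMP2 (-0.146) not.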
